A study of Homo sapiens with 8 samples.

Results

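By the labels, estrogen receptor beta (ERβ, gene ESR2) was knocked out in U87 MG cells, an established human glioblastoma line. Its isoform ERβ1 was, also by label, put back into the knockout cells. The comparison described here sets the 2 libraries labelled as knockout cells with ERβ1 (ERb1) against the 2 libraries labelled as knockout cells (ERb_KO), which are 4 of the 8 libraries of the series, chosen by their titles. Both groups are described as carrying the CRISPR/Cas9 knockout, so by label they differ in the isoform put back. Whether they carry the same edit is not given in the sources used here. The other 4 libraries are knockout cells with ERβ5 (ERb5, 2 libraries) and U87 cells without the knockout (control, 2 libraries), and their levels are given only where they place an ERb1 value. All cells were grown in DMEM with fetal bovine serum and no ligand is named. The labels do not say how ERβ1 was delivered, whether a group is a single clone, or whether 2 libraries of 1 group stem from separate cultures. The p-values therefore measure the spread between these libraries, which may be technical. The series' title names isoform-specific effects of ERβ on glioblastoma progression as the question.

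ERβ is a nuclear receptor, a transcription factor switched by estrogens that binds estrogen response elements or acts through other DNA-bound factors. ERβ1 is the full-length form that binds ligand, while ERβ5 ends in a shorter C-terminal region. In several cancer types ERβ is described as restraining cell division. Division itself runs on waves of transcription, in which E2F factors switch on genes of DNA synthesis and the B-Myb and FOXM1 factors then switch on genes of mitosis.

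Gene reads per library ran from 26760897 in ERb1 replicate 1 to 48076414 in ERb1 replicate 2. Levels are given as CPM, which are read counts scaled to library size with TMM factors and not to gene length, and changes are log2(ERb1/ERb_KO) with a standard error (SE) from edgeR. The reads of the receptor gene did not separate the groups as the labels would. ESR2 had 6 and 18 reads in ERb1, 7 and 10 reads in ERb5, 23 and 21 reads in ERb_KO, and 25 and 20 reads in control, so ESR2 was not read more often in the libraries labelled ERb1 than in those labelled ERb_KO. The log2 change of ESR2 was -0.93 and was not called (edgeR adjusted p = 0.12), so no added ESR2 transcript was seen in ERb1. Reads of an unaltered ERβ1 coding sequence would align to the exons of ESR2. The sequence introduced is not given in the sources used here. ESR1, the gene of the other estrogen receptor, had 119 and 128 CPM in ERb1, against 141 and 130.1 CPM in ERb_KO, and was not called (edgeR adjusted p = 0.41). Every direction below is one between libraries as labelled. The line's label also stood apart from its markers. Of 22 listed markers of mesenchymal glioma and astrocytes, POSTN, OLIG2, AQP4 and S100B had no read in any of the 4 libraries, GFAP had 2 and 4 reads in ERb1, against 2 and 2 reads in ERb_KO, and the list summed to 273 and 240 CPM in ERb1, against 359 and 319 CPM in ERb_KO. The luminal epithelial genes KRT8, KRT18, KRT19 and GATA3, with values given further down, were read in all 4. Libraries also differed in base composition. Each library's log2 CPM was taken as a deviation from the mean of all 8 libraries. Its trend with the GC content of transcripts had a correlation across genes of 0.354 and -0.138 in ERb1, against -0.564 and -0.463 in ERb_KO. The values were 0.121 and 0.341 in ERb5, and 0.128 and 0.194 in control. Genes are not independent replicates, and this trend is given beside the results it touches.

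Of 13915 genes tested, 3466 (24.9%) passed an adjusted p of 0.05 between ERb1 and ERb_KO, 1720 higher (12.4%) and 1746 lower (12.5%) in ERb1. The larger changes were uneven. Among the called genes, 200 (1.44% of those tested) were at least 2-fold higher and 511 (3.67%) at least 2-fold lower. The count depends on single libraries, since 1198 genes passed without ERb1 replicate 1 (512 higher and 686 lower), 1843 without ERb_KO replicate 1 and 2017 without ERb_KO replicate 2. The libraries of the groups did not overlap at 9090 genes (65.3%), so non-overlap alone is common here. The median change over all genes tested was -8.2e-05. For each list with 0 rises given below, DESeq2 also called 0 rises, and at most 1 member was higher at an unadjusted edgeR p under 0.05.

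**Figure D1:**
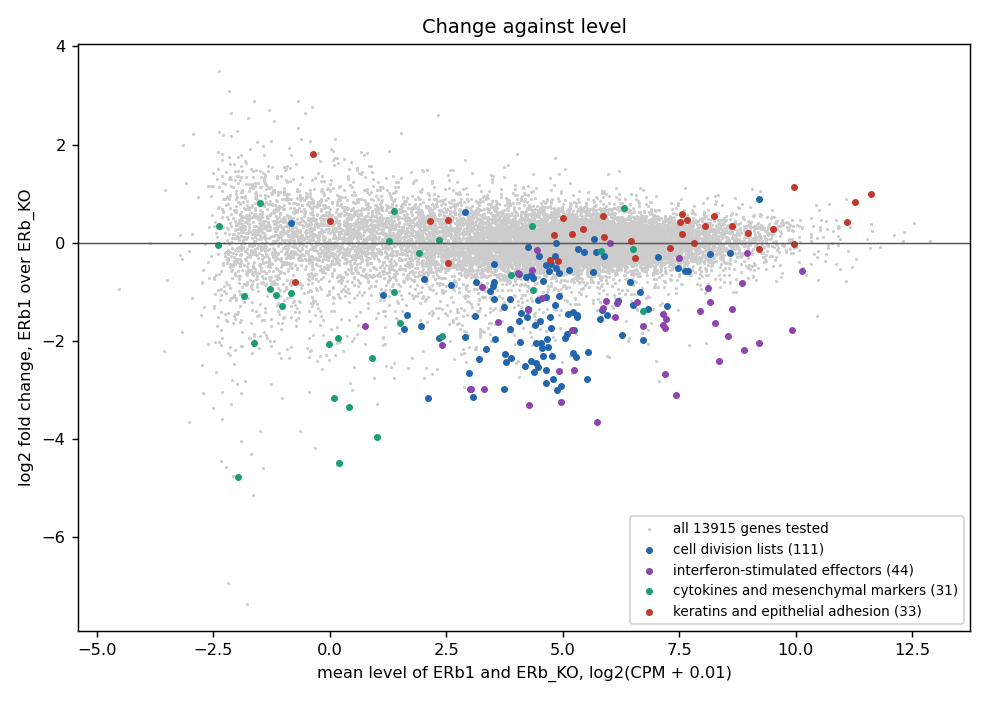
Each point is a gene, placed by the log2 of its mean CPM over the 4 libraries plus 0.01 and by its log2 change, ERb1 over ERb_KO. Genes of cell division and interferon-stimulated effectors lie mostly below 0, and keratins and adhesion genes mostly above it. Cytokines and mesenchymal markers share a colour. The cytokine genes that fell lie at the low end of mean CPM, all below 5 CPM, while the mesenchymal marker FN1 fell at a higher level.

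The sequences below are promoters of members that the results turn on: HMMR and PLK1 for mitosis, CDC6 for replication, IFIT1 and IFIT3 for the interferon response, and IARS for amino acid supply. They lie at chr5:162887388-162887687 (HMMR), chr16:23689960-23690259 (PLK1), chr17:38443881-38444180 (CDC6), chr10:91152130-91152429 (IFIT1) and chr10:91087504-91087803 (IFIT3) on the plus strand and at chr9:95055930-95056229 (IARS) on the minus strand of GRCh37. Each runs from 250 bases before to 50 bases after the start that the RefSeq table uses, 5′ to 3′ on the gene's strand. The gene positions given further down are those of a GENCODE annotation, whose start can differ from the RefSeq one, as in HMMR, PLK1 and IFIT1. They come from the RefSeq promoter table of GRCh38.p14 and were placed on GRCh37, the sequence of the hg19 build used for the reads, by exact match. Capitals mark the motif of that gene's group, on either strand: the cell cycle homology region (CHR, TTTGAA or TTCGAA), the E2F site (TTTCGCGC or TTTGGCGC), the interferon-stimulated response element (ISRE, TTTC and TTTC with any 2 bases between them) or the amino acid response element read by ATF4 (TGATGNAA).
HMMR: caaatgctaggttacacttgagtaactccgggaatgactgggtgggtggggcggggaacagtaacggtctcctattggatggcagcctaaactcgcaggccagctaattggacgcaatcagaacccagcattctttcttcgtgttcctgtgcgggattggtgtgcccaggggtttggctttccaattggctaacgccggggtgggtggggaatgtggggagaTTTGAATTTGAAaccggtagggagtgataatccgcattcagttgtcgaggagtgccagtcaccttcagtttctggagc
PLK1: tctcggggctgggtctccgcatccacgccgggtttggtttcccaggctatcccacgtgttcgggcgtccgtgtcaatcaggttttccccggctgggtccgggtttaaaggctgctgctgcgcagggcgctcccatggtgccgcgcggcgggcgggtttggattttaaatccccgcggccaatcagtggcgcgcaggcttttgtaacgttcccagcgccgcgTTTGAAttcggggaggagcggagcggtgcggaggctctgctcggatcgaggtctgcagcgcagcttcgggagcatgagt
CDC6: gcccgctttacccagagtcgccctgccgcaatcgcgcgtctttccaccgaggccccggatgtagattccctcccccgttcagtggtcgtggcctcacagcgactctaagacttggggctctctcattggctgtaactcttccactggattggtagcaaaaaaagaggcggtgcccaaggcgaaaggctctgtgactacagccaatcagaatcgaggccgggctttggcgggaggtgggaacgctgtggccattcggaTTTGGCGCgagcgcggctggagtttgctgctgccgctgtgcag
IFIT1: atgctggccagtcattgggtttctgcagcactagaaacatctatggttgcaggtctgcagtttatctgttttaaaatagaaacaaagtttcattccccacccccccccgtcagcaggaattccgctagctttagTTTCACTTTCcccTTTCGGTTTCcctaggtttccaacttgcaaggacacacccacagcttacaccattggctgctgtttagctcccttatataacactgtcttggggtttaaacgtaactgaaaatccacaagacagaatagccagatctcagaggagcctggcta
IFIT3: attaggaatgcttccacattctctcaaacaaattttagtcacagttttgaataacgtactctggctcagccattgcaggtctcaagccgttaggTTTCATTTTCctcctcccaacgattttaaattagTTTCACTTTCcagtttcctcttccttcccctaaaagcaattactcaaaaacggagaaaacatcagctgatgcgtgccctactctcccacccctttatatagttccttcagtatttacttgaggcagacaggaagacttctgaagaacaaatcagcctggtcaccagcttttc
IARS: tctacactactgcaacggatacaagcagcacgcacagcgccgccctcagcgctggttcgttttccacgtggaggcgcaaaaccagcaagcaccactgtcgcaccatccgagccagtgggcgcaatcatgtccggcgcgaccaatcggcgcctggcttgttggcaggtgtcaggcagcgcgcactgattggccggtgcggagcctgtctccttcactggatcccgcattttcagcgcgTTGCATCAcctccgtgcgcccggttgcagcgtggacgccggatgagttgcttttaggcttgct
A match is a description of letters and not a site shown to be bound. Of the 13915 genes tested, 10572 (76%) had a promoter in the table.

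The transcription factors that drive the cell cycle were lower in ERb1. MYBL2, the B-Myb subunit of the complex that switches on mitotic genes (chromosome 20, positions 42295659 to 42345135 on the plus strand, GRCh37), had 22 and 20.5 CPM in ERb1, against 112 and 99.7 CPM in ERb_KO. FOXM1, which joins B-Myb at the same promoters, had 34.7 and 33.6 CPM in ERb1, against 102 and 92.6 CPM in ERb_KO. In both genes every ERb1 library lay below every ERb_KO library, with log2 changes of -2.32 ± 0.11 for MYBL2 and -1.51 ± 0.10 for FOXM1 (edgeR adjusted p = 1.9e-06 and 5.7e-06). The activator E2F1, which turns on genes of DNA synthesis, had 13 and 12.3 CPM in ERb1, against 24.3 and 25.5 CPM in ERb_KO, and a log2 change of -0.98 ± 0.12. E2F2, another activator, changed by -1.41 ± 0.18, and E2F7 and E2F8, which repress the same promoters, by -1.67 ± 0.24 and -2.16 ± 0.18. The pocket protein RBL1 (p107), itself a product of E2F activity, had 9.88 and 10.1 CPM in ERb1, against 24.8 and 20.5 CPM in ERb_KO. RB1, which holds E2F proteins back, had 31.8 and 48.8 CPM in ERb1, against 55.9 and 54.7 CPM in ERb_KO, and did not pass (adjusted p = 0.072 by edgeR). Of 24 tested CDK inhibitors and RB-E2F regulators, 13 fell and 1 rose, with a median of -0.57. The inhibitor CDKN1A (p21) overlapped between groups, at 699 and 467 CPM in ERb1, against 565 and 509 CPM in ERb_KO. CDKN1B (p27) had 87.1 and 126 CPM in ERb1, against 159 and 213 CPM in ERb_KO, and a log2 change of -0.80 ± 0.18, a call that was lost without ERb1 replicate 1 (edgeR adjusted p = 0.089) and without ERb_KO replicate 2 (adjusted p = 0.072).

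Cyclins and kinases of S phase and mitosis fell together, while the G1 cyclin CCND1 rose. CCNA2, the cyclin of S and G2 phase, had 5.67 and 8.24 CPM in ERb1, against 49 and 47 CPM in ERb_KO. CDK1, the kinase that starts mitosis, had 13.9 and 18.5 CPM in ERb1, against 74 and 78.8 CPM in ERb_KO, and CCNB1, its cyclin, had 60.7 and 67 CPM in ERb1, against 163 and 164 CPM in ERb_KO. In all of these both ERb1 libraries lay below both ERb_KO libraries, with the widest ratio in CCNA2. PLK1, the kinase that organises spindle poles and mitotic exit (chromosome 16, positions 23688977 to 23701688 on the plus strand), had 8.9 and 9.15 CPM in ERb1, against 36.7 and 37.6 CPM in ERb_KO. CCNE2, a cyclin of S phase entry, had 8.98 and 9.67 CPM in ERb1, against 27.9 and 22.6 CPM in ERb_KO. The log2 changes were -2.77 ± 0.18 for CCNA2, -2.23 ± 0.14 for CDK1, -1.35 ± 0.11 for CCNB1, -2.04 ± 0.16 for PLK1 and -1.43 ± 0.14 for CCNE2, with edgeR adjusted p-values between 5.2e-06 and 5.6e-05. Of 25 tested members of this list, 18 fell and 2 rose, with a median of -1.35 and background shares of 12.5% and 12.4%. The rises were CCND1, at 789.8 and 752 CPM in ERb1, against 441 and 391 CPM in ERb_KO, and CCNE1, at 9.91 and 8.24 CPM in ERb1, against 6.7 and 4.91 CPM in ERb_KO. CCNE1 did not pass without ERb1 replicate 1 or without ERb_KO replicate 2 (edgeR adjusted p = 0.2 in both). CDK2, CDK4, CDK6, CCND3 and WEE1 did not pass, with log2 changes between -0.27 and 0.40. CDK4 and CDK6 are the kinases that pair with CCND1.

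The structures of mitosis fell almost as a whole. Over the kinetochore, spindle checkpoint, motor, condensin and cytokinesis lists, 78 of 86 tested members fell and 0 rose by edgeR, against the background of 12.5% lower. After the trend with GC content and length was removed, 75 fell and 0 rose, where 1798 of all genes fell. Tested against a minimum change of 1.5-fold, 57 fell and 0 rose, where 359 of all genes fell. The kinetochore and centromere list had 29 of 32 members lower with a median of -1.48, and the members not called were PMF1, NSL1 and MIS18A, with log2 changes between -0.43 and -0.10. NDC80 and NUF2 together form the arm of the kinetochore that binds microtubules. NDC80 had 5.33 and 6.61 CPM in ERb1, against 50.2 and 37 CPM in ERb_KO, and NUF2 had 5.67 and 8.8 CPM in ERb1, against 57.7 and 53.1 CPM in ERb_KO. CENPF, a large kinetochore protein that builds up in G2, had 26.4 and 30.2 CPM in ERb1, against 91.5 and 74.8 CPM in ERb_KO. HJURP, the chaperone that loads the centromeric histone, had 3.12 and 4.21 CPM in ERb1, against 17.1 and 16.2 CPM in ERb_KO. In each of these genes the groups were separate, with log2 changes of -2.86 ± 0.21 for NDC80, -2.91 ± 0.22 for NUF2, -1.55 ± 0.12 for CENPF and -2.16 ± 0.20 for HJURP. In the spindle checkpoint, which delays chromosome separation until all chromosomes are attached, 13 of 15 members fell with a median of -1.14. The checkpoint kinase TTK had 10.3 and 14.3 CPM in ERb1, against 45.5 and 37.6 CPM in ERb_KO. BUB1 changed by -1.58 ± 0.17, BUB1B by -1.51 ± 0.15 and MAD2L1 by -1.35 ± 0.19. CDC20, the activator that the checkpoint holds back, had 8.45 and 8.84 CPM in ERb1, against 36.9 and 39.9 CPM in ERb_KO, and it fell as well (-2.15 ± 0.15).

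Motors and spindle proteins showed the deepest fall of these lists, with 21 of 23 lower and a median of -1.78. HMMR, a spindle and hyaluronan-binding protein (chromosome 5, positions 162887209 to 162918947 on the plus strand), had 4.21 and 8.39 CPM in ERb1, against 55.6 and 48.4 CPM in ERb_KO, which is a log2 change of -3.01 ± 0.26, or -3.63 without ERb1 replicate 2. KIF20A, a motor of cytokinesis, had 12.3 and 13.7 CPM in ERb1, against 69.5 and 61 CPM in ERb_KO. DLGAP5, a spindle assembly factor, had 5.6 and 7.52 CPM in ERb1, against 41.7 and 31.1 CPM in ERb_KO, and ASPM, which focuses spindle poles, had 10.4 and 15.3 CPM in ERb1, against 69.2 and 53.7 CPM in ERb_KO. All of these were lower in both ERb1 libraries, with log2 changes of -2.32 ± 0.17 for KIF20A, -2.46 ± 0.19 for DLGAP5 and -2.24 ± 0.18 for ASPM. CKAP2, with a log2 change of -0.27 ± 0.12, and CKAP5 were not called. CKAP5, a microtubule polymerase that cells also use outside mitosis, had 365 and 343 CPM in ERb1, against 454 and 369 CPM in ERb_KO. In the list of condensin, chromosomal passenger complex and cytokinesis, 15 of 16 fell with a median of -1.38, and NCAPD3 was not called (-0.20 ± 0.14). AURKB, the kinase of the passenger complex, had 6.8 and 6.03 CPM in ERb1, against 36.2 and 31.2 CPM in ERb_KO. ANLN, the scaffold of the contractile ring, had 40.5 and 45.2 CPM in ERb1, against 191 and 147 CPM in ERb_KO, and BIRC5 (survivin) changed by -2.31 ± 0.13.

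**Figure D2:**
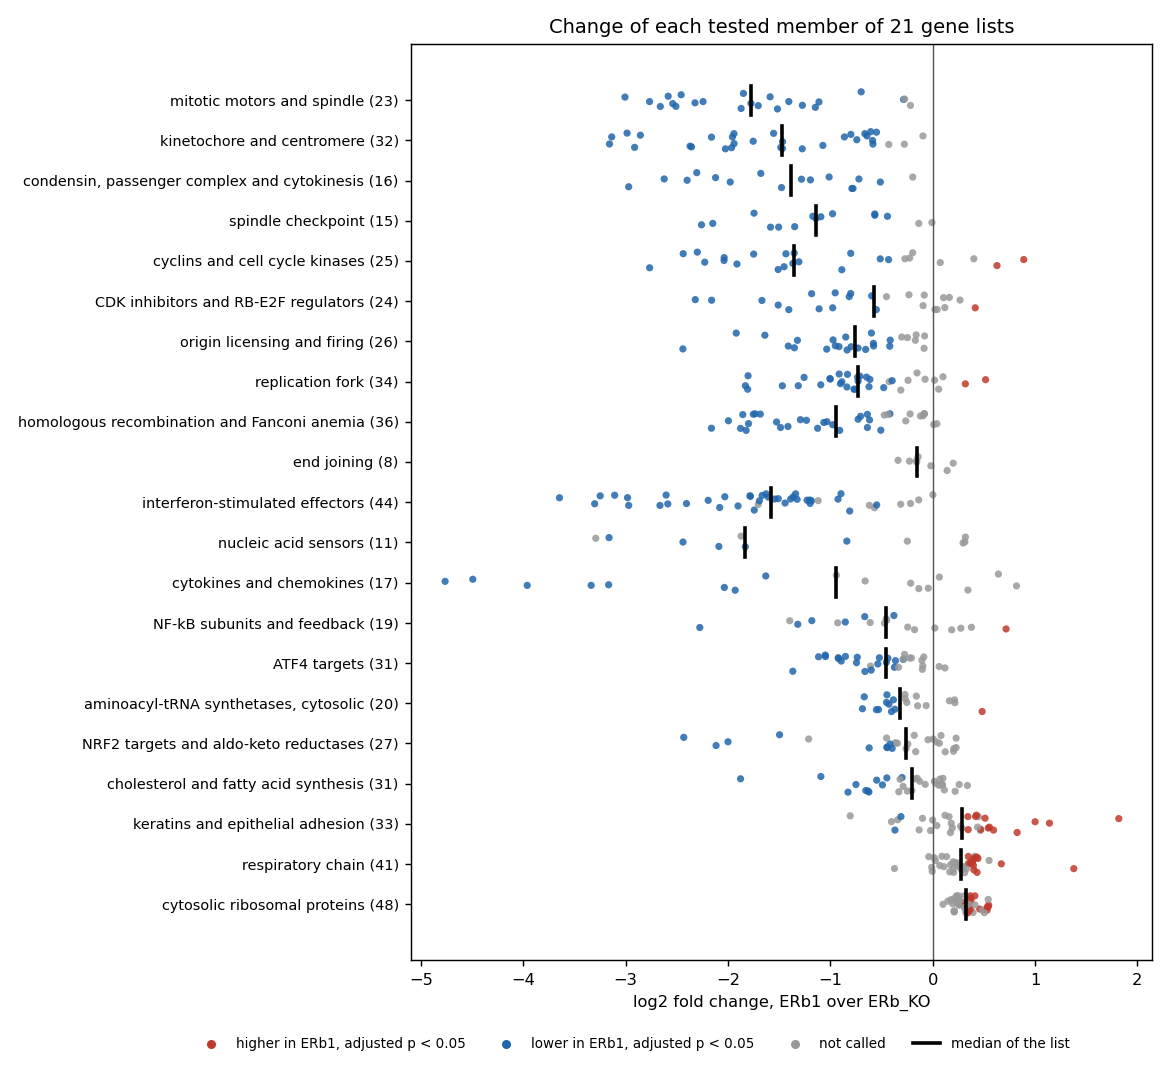
Each row is a gene list, each point the log2 change, ERb1 over ERb_KO, of a tested member (red called higher, blue called lower, grey not called), and the black line the list's median. The medians of the mitotic lists lie between -1.78 and -1.14 and that of interferon-stimulated effectors at -1.58, while the keratin and adhesion list has its median at 0.29.

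The shares of promoters with a motif use no change in level, so they describe the genes listed and not their fall. This holds for the motif share of each list in the report. A CHR was present in 56 of the 90 promoters of the 5 mitotic lists, cyclins and kinases included (62.2%), against 1169 of 10572 promoters of tested genes (11.1%). The share was 85.7% of motors and spindle genes (18 of 21), 76.9% of the condensin and cytokinesis list (10 of 13), 66.7% of the spindle checkpoint (8 of 12), 50% of kinetochore genes (13 of 26) and 38.9% of cyclins and kinases (7 of 18). A CHR was also found in 45% of promoters of histone cluster genes, of which 2 of 23 fell. HMMR held 2 copies and PLK1 held 1, both shown above. Read the other way, 247 of the 1169 genes with a CHR fell (21.1%), against 1143 of 9403 without (12.2%). The 1169 include the 56 genes above. Transcripts of genes with a CHR had a median GC content of 45.2%, against 49.2% of the others, and the part of base composition in that difference was not tested. Such a share was not particular to the CHR. Of genes with an E2F site 22.5% fell, with an ISRE 23.1%, with the ATF4 element 21% and with an NF-kB motif 18.3%. Without these motifs the shares were 13%, 12.9%, 13% and 13%. The estrogen response element, spelled GGTCA and TGACC with any 3 bases between them, was found in 1 of the 10572 promoters. No match says only that those letters are not in a 300-base window.

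DNA replication genes were lower as well, with medians nearer 0 than those of the mitotic lists. In origin licensing and firing, 20 of 26 tested members fell and 0 rose, with a median of -0.76. CDC6, which loads the replicative helicase at origins (chromosome 17, positions 38444131 to 38460909 on the plus strand), had 17.1 and 15.2 CPM in ERb1, against 41 and 41.1 CPM in ERb_KO. MCM10, which starts the helicase, had 5.41 and 4.57 CPM in ERb1, against 31.3 and 22.3 CPM in ERb_KO, and CDC45, a part of the moving helicase, had 8.53 and 8.26 CPM in ERb1, against 32.5 and 31 CPM in ERb_KO. MCM2 and MCM7 are subunits of the helicase ring. MCM7 had 94.5 and 86 CPM in ERb1, against 172 and 150.3 CPM in ERb_KO, and MCM2 had 64 and 61.3 CPM in ERb1, against 103 and 94 CPM in ERb_KO. Log2 changes were -1.35 ± 0.13 for CDC6, -2.44 ± 0.18 for MCM10, -1.92 ± 0.12 for CDC45, -0.84 ± 0.11 for MCM7 and -0.66 ± 0.11 for MCM2 (edgeR adjusted p between 5.2e-06 and 0.0018). At the replication fork, 24 of 34 fell and 2 rose with a median of -0.73. Of those rises, POLD4 was not called without ERb1 replicate 1 or without ERb_KO replicate 1, and RPA1 was not called without any single library of these groups. PCNA, the sliding clamp, had 38.2 and 35.7 CPM in ERb1, against 69.1 and 68.9 CPM in ERb_KO. Among 12 tested enzymes of deoxynucleotide supply, 9 fell with a median of -0.84. TYMS, which makes thymidylate, had 32.1 and 27.5 CPM in ERb1, against 81.7 and 72.7 CPM in ERb_KO, and TK1, which salvages thymidine, had 16.2 and 16.1 CPM in ERb1, against 38.8 and 44.8 CPM in ERb_KO. An E2F site was found in 12 of 61 replication promoters (19.7%), CDC6 and MCM7 among them, against 218 of 10572 (2.06%).

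Repair genes are given by pathway. In homologous recombination and the Fanconi anemia pathway, which work with replicated DNA, 26 of 36 tested members fell and 0 rose, with a median of -0.94. BRCA2, a tumour suppressor of homologous recombination, had 4.73 and 8.22 CPM in ERb1, against 26.3 and 20.4 CPM in ERb_KO, and EXO1, the nuclease that resects break ends, had 2.74 and 2.56 CPM in ERb1, against 13.9 and 9.65 CPM in ERb_KO. MND1, a recombination partner best known from meiosis, had 1.46 and 1.86 CPM in ERb1, against 13.5 and 12.6 CPM in ERb_KO. The log2 changes were -1.82 ± 0.22 for BRCA2, -2.16 ± 0.22 for EXO1 and -2.95 ± 0.28 for MND1. Of the 8 end joining genes tested, which work at any stage of the cycle, 0 were called by edgeR or DESeq2 in either direction, 1 was lower at an unadjusted p under 0.05, and their median was -0.15. Chromatin genes lay between, with 14 of 26 lower and a median of -0.36. UHRF1, which carries DNA methylation through replication, had 2.25 and 1.65 CPM in ERb1, against 6.68 and 4.71 CPM in ERb_KO. EZH2, the writer of H3K27 methylation, had 29 and 29 CPM in ERb1, against 64.5 and 58.9 CPM in ERb_KO. The helicase HELLS changed by -1.30 ± 0.17 and the high-mobility-group protein HMGB2 by -2.31 ± 0.16. Because the libraries are bulk RNA, fewer cells in division and less of these transcripts per cell cannot be told apart.

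Interferon-stimulated genes were the other large group that was lower in ERb1. Cells make these antiviral proteins after interferons bind their receptors. Of 44 tested effectors, 36 fell and 0 rose, with a median of -1.58, and 24 fell without ERb1 replicate 1. Their levels summed to 4536 and 4778 CPM in ERb1, against 12737 and 11032 CPM in ERb_KO. IFIT1, which binds foreign RNA caps (chromosome 10, positions 91152303 to 91166244 on the plus strand), had 206 and 258 CPM in ERb1, against 1038 and 858 CPM in ERb_KO. OAS3 and OAS2 sense double-stranded RNA. OAS3 had 445 and 427 CPM in ERb1, against 1716 and 1280.3 CPM in ERb_KO, and OAS2 had 164 and 174 CPM in ERb1, against 916 and 630.3 CPM in ERb_KO. SAMD9L, an antiviral and growth-restraining protein, had 1.58 and 2.73 CPM in ERb1, against 21 and 14 CPM in ERb_KO. The log2 changes of these genes were -2.03 ± 0.22 for IFIT1, -1.78 ± 0.18 for OAS3, -2.19 ± 0.26 for OAS2 and -2.97 ± 0.41 for SAMD9L. ADAR, which edits double-stranded RNA, changed by -0.65 ± 0.11, with 960.3 and 905 CPM in ERb1, against 1572 and 1347 CPM in ERb_KO. The effectors not called included IFI6, IFITM2, MX2, ISG20, UBA7, BST2 and TRIM25, with log2 changes between -1.70 and 0.00.

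Smaller shares of the sensors and signal carriers of the same pathway passed. The RNA sensors IFIH1 (MDA5) and DDX58 (RIG-I) were lower. IFIH1 had 39.6 and 51.2 CPM in ERb1, against 181 and 142 CPM in ERb_KO, and DDX58 had 76.4 and 81.7 CPM in ERb1, against 399.5 and 273 CPM in ERb_KO. Their log2 changes were -1.83 ± 0.24 and -2.09 ± 0.21, and 5 of 11 tested nucleic acid sensors fell and 0 rose. The median of the sensors was -1.83, against -1.58 for the effectors, so the smaller share was not a smaller median change. Of 24 tested receptors, STATs and IRFs, 7 fell and 2 rose, and 3 fell and 1 rose without ERb1 replicate 1. In antigen presentation, 8 of 20 tested genes fell, but 1 fell without ERb1 replicate 1, 2 without ERb_KO replicate 1 and 3 without either other library. Of these, TAP2, a subunit of the peptide transporter, had 83.2 and 77.2 CPM in ERb1, against 218 and 200 CPM in ERb_KO, and kept its call in each of those fits. SAMHD1, which breaks down deoxynucleotides and restricts retroviruses, had 42.1 and 40.3 CPM in ERb1, against 142 and 105 CPM in ERb_KO. An ISRE was found in 23 of 34 promoters of the effectors (67.6%), against 290 of 10572 (2.74%), and IFIT1 and IFIT3 held 2 each. IFIT3 had 32.4 and 38.8 CPM in ERb1, against 371 and 244 CPM in ERb_KO.

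The ERb1 level of these genes lay between those of other groups. IFIT1 had 1372 and 2268 CPM in ERb5 and 76.6 and 74.6 CPM in control, so ERb1 was below ERb5 and ERb_KO and above control. OAS3 had 2037 and 2981 CPM in ERb5 and 230.3 and 219.8 CPM in control, in the same order. Against ERb5, 43 of 44 effectors were lower in ERb1 with a median of -2.42, where 485 of all genes were lower (3.49%), and 24 passed without ERb1 replicate 1, 28 without ERb1 replicate 2 and 24 with only these groups in the fit. Against control, 8 were higher and 1 lower with a median of 0.63, where 189 of all genes were higher (1.36%). That count was 3 without control replicate 1 and 4 without any other single library of these groups, and it was 25 with only these groups in the fit and 13 by DESeq2. For IFIT1 the log2 change of ERb1 was 1.62 ± 0.22 over control and -2.97 ± 0.22 over ERb5 (edgeR adjusted p = 0.0028 and 0.00016). Over control it was not called without control replicate 1 (edgeR adjusted p = 0.052). These comparisons share the ERb1 libraries, so their values stand side by side and are not independent.

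**Figure D3:**
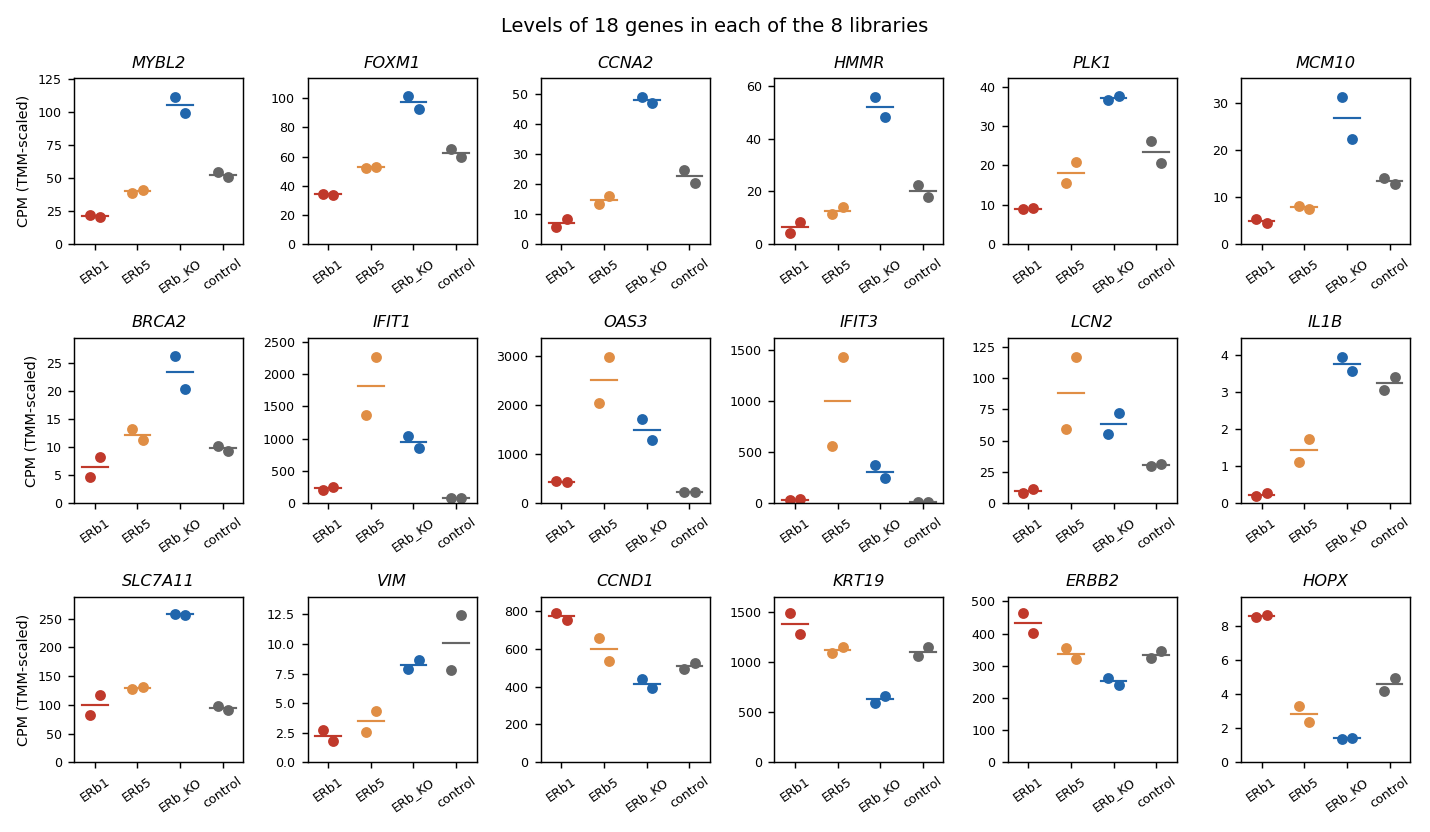
Each panel is a gene and each point a library, with CPM on the vertical axis, the group mean as a line and the groups ERb1, ERb5, ERb_KO and control from left to right. MYBL2, FOXM1 and CCNA2 are lowest in ERb1, whereas the ERb1 points of IFIT1, OAS3 and IFIT3 lie above those of control and below those of ERb_KO and ERb5. Against control ERb1 was called higher in IFIT1 and OAS3, but not without control replicate 1, and was not called in IFIT3.

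Cytokine genes fell at low levels, and some NF-kB feedback genes fell at higher ones. Of 17 tested cytokines and chemokines, 8 fell and 0 rose, with a median of -0.94. IL6, the inducer of the acute phase response, had 0.488 and 0.434 CPM in ERb1, against 1.4 and 2.14 CPM in ERb_KO. IL8 (CXCL8), a neutrophil attractant, had 0.15 and 0.248 CPM in ERb1, against 2.02 and 1.81 CPM in ERb_KO, and IL1B had 0.188 and 0.269 CPM in ERb1, against 3.95 and 3.56 CPM in ERb_KO. Each was lower in both ERb1 libraries, with log2 changes of -1.93 ± 0.31 for IL6, -3.17 ± 0.35 for IL8 and -3.96 ± 0.31 for IL1B, and every one of these libraries lay below 5 CPM. ICAM1, an adhesion receptor induced by NF-kB, had 31.8 and 31.3 CPM in ERb1, against 59.3 and 54.6 CPM in ERb_KO. TNFAIP3, which shuts the NF-kB pathway off again, had 3.94 and 4.05 CPM in ERb1, against 10.3 and 9.62 CPM in ERb_KO. Their log2 changes were -0.85 ± 0.15 and -1.32 ± 0.23. Of 19 tested NF-kB subunits and feedback genes 6 fell and 1 rose, 2 fell without ERb1 replicate 1, and 11 fell after the trend with GC content and length was removed. LCN2, an iron-binding acute phase protein, had 8.53 and 11.5 CPM in ERb1, against 55.2 and 72.1 CPM in ERb_KO, and a log2 change of -2.65 ± 0.30 (edgeR adjusted p = 0.00045). In its list of acute phase and complement genes 6 of 13 fell and 1 rose, but 2 fell without ERb1 replicate 1 and 3 without ERb1 replicate 2. An NF-kB motif (GGG and TTTCC with any 2 bases between them, which can share its TTTC with an ISRE) was found in 4 of 10 cytokine promoters (40%) and in 224 of 10572 (2.12%).

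Markers of mesenchymal cells moved with these genes. Of 14 tested members of that list, 7 fell and 1 rose with a median of -1.04, and 4 fell and 1 rose without ERb1 replicate 1. VIM, the intermediate filament of mesenchymal cells, had 2.7 and 1.82 CPM in ERb1, against 7.85 and 8.66 CPM in ERb_KO. FN1, fibronectin, had 63.4 and 52.7 CPM in ERb1, against 175 and 130.1 CPM in ERb_KO. The groups were separate in both, with log2 changes of -1.90 ± 0.30 for VIM and -1.40 ± 0.14 for FN1. The member that rose was LGALS1 (galectin 1), at 104 and 95.2 CPM in ERb1, against 57 and 64 CPM in ERb_KO. The part of these markers in the fall of the cytokines was not tested. The growth factor genes EREG and HBEGF, both ligands of the epidermal growth factor receptor, also fell at low levels. EREG had 0.0751 and 0.0826 CPM in ERb1, against 1.24 and 1.12 CPM in ERb_KO, and HBEGF had 2.74 and 2.29 CPM in ERb1, against 4.93 and 5.9 CPM in ERb_KO.

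Genes of amino acid supply were lower in ERb1. ATF4 is the transcription factor that cells make when amino acids run short or the endoplasmic reticulum is stressed. Of 31 tested ATF4 targets 19 fell and 0 rose with a median of -0.45, and 6 fell without ERb1 replicate 1 and 8 without ERb_KO replicate 2. SLC7A11, the cystine importer, had 82.8 and 116 CPM in ERb1, against 258 and 256 CPM in ERb_KO. ASNS, which makes asparagine, had 303 and 356 CPM in ERb1, against 583 and 608 CPM in ERb_KO. CEBPG, a partner of ATF4, had 52.4 and 67.4 CPM in ERb1, against 107 and 142 CPM in ERb_KO, and MTHFD2, of mitochondrial folate metabolism, had 203 and 260.3 CPM in ERb1, against 377 and 484 CPM in ERb_KO. These were separate between groups, with log2 changes of -1.37 ± 0.14 for SLC7A11, -0.85 ± 0.12 for ASNS, -1.05 ± 0.15 for CEBPG and -0.89 ± 0.14 for MTHFD2. The transcript of ATF4 itself overlapped, at 495 and 479 CPM in ERb1, against 474 and 571 CPM in ERb_KO. Among cytosolic aminoacyl-tRNA synthetases, which charge tRNAs, 10 of 20 fell and 1 rose with a median of -0.32, and without ERb1 replicate 1 the count was 5 and 0, and without ERb_KO replicate 1 it was 6 and 0. AARS, for alanine, had 1645 and 1582 CPM in ERb1, against 2259 and 2398 CPM in ERb_KO. IARS, for isoleucine, had 451 and 439.7 CPM in ERb1, against 651 and 653 CPM in ERb_KO, and GARS, for glycine, had 471 and 474 CPM in ERb1, against 636 and 657 CPM in ERb_KO. Their log2 changes were -0.53 ± 0.10 for AARS, -0.55 ± 0.12 for IARS and -0.45 ± 0.09 for GARS. The ATF4 element was found in 5 of 12 synthetase promoters (41.7%: AARS, CARS, IARS, NARS and TARS), in 5 of 26 promoters of ATF4 targets (19.2%) and in 176 of 10572 (1.66%).

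The unfolded protein response did not move as a list. Of 26 tested endoplasmic reticulum chaperones and response genes 4 rose and 3 fell, with 1 and 5 without ERb_KO replicate 1 and 1 and 2 without ERb1 replicate 1. The sensor ERN1 (IRE1) had 37.1 and 30 CPM in ERb1, against 71.8 and 77.2 CPM in ERb_KO. ATF6, another sensor, had 205 and 211 CPM in ERb1, against 326 and 328 CPM in ERb_KO. Their log2 changes were -1.15 ± 0.13 for ERN1 and -0.65 ± 0.10 for ATF6 (edgeR adjusted p = 0.00015 and 0.00081). CRELD2, a protein of the endoplasmic reticulum induced by its stress, was higher, at 132 and 123 CPM in ERb1, against 60.8 and 83.8 CPM in ERb_KO. Among 27 tested NRF2 targets and aldo-keto reductases 9 fell and 0 rose, and 3 fell without ERb1 replicate 1. AKR1B1, an aldose reductase, had 0.601 and 0.517 CPM in ERb1, against 2.16 and 2.27 CPM in ERb_KO, and was called lower (edgeR adjusted p = 0.0013). AKR1C1 and AKR1C2 are near-identical copies, so their split is uncertain, and both changed alike, by -2.43 ± 0.33 and -2.12 ± 0.31. In cholesterol and fatty acid synthesis 11 of 31 fell and 0 rose, with 6 lower without ERb_KO replicate 1 and 7 without ERb1 replicate 1. SCD, the stearoyl-CoA desaturase, had 1148 and 969 CPM in ERb1, against 1931 and 1629 CPM in ERb_KO, and FADS1, a desaturase of longer chains, had 77.8 and 67.4 CPM in ERb1, against 161 and 148 CPM in ERb_KO.

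The largest rises in CPM included luminal epithelial genes. KRT19, a keratin of simple epithelia (chromosome 17, positions 39679869 to 39684560 on the minus strand), had 1483 and 1278 CPM in ERb1, against 589 and 663 CPM in ERb_KO. KRT8 had 4453 and 3889.8 CPM in ERb1, against 2057 and 2113 CPM in ERb_KO, and its filament partner KRT18 had 3266 and 3104 CPM in ERb1, against 1657 and 1938 CPM in ERb_KO. GATA3, a transcription factor of luminal breast cells, had 1844 and 1721 CPM in ERb1, against 1124 and 1115 CPM in ERb_KO. The log2 changes were 1.14 ± 0.11 for KRT19, 1.00 ± 0.11 for KRT8, 0.83 ± 0.11 for KRT18 and 0.67 ± 0.11 for GATA3. GATA3 did not stand for its list, since of 19 tested luminal transcription factors 4 rose and 3 fell with a median of -0.06, with 2 and 2 without ERb1 replicate 1 and 2 and 3 without ERb_KO replicate 1. Of 20 tested luminal breast epithelium markers 7 rose and 1 fell with a median of 0.11, and 4 rose without ERb1 replicate 1. Of 33 tested keratins and epithelial adhesion genes, 13 rose and 2 fell with a median of 0.29, and 7 rose and 0 fell without ERb1 replicate 1. KRT13, a keratin of stratified epithelia, had 1.16 and 1.22 CPM in ERb1, against 0.367 and 0.296 CPM in ERb_KO. ERBB2, the receptor tyrosine kinase HER2, had 465 and 400.3 CPM in ERb1, against 263 and 242 CPM in ERb_KO. CLU (clusterin), a secreted chaperone, had 3017 and 2592 CPM in ERb1, against 1591 and 1410.3 CPM in ERb_KO, and DDR1, a collagen receptor of epithelia, had 1858 and 1653 CPM in ERb1, against 1051 and 1014 CPM in ERb_KO. ERb_KO stood apart from the other groups in some of these, since KRT19 had 1091 and 1147 CPM in ERb5 and 1063 and 1144 CPM in control. ERb1 did not pass against either in KRT19 (edgeR adjusted p = 0.16 against ERb5 and 0.13 against control).

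Changes ran with base composition. In the tenth of genes with the most GC in their transcripts (median 64.5%), 394 rose and 31 fell with a median change of 0.34. In the tenth with the least (median 37%), 12 rose and 356 fell with a median of -0.31. In another fit, the trend of each library's levels with GC content and length was removed before testing. That left KRT19 at 0.83, ERBB2 at 0.53, GATA3 at 0.56 and CCND1 at 0.87, all called (edgeR adjusted p between 9.1e-05 and 0.0025). MYBL2 was at -2.57 and IFIT1 at -1.84 after the same step. After it the number of genes called and at least 2-fold higher was 114, against 200 before. The part of base composition in any change was not tested further.

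**Figure D4:**
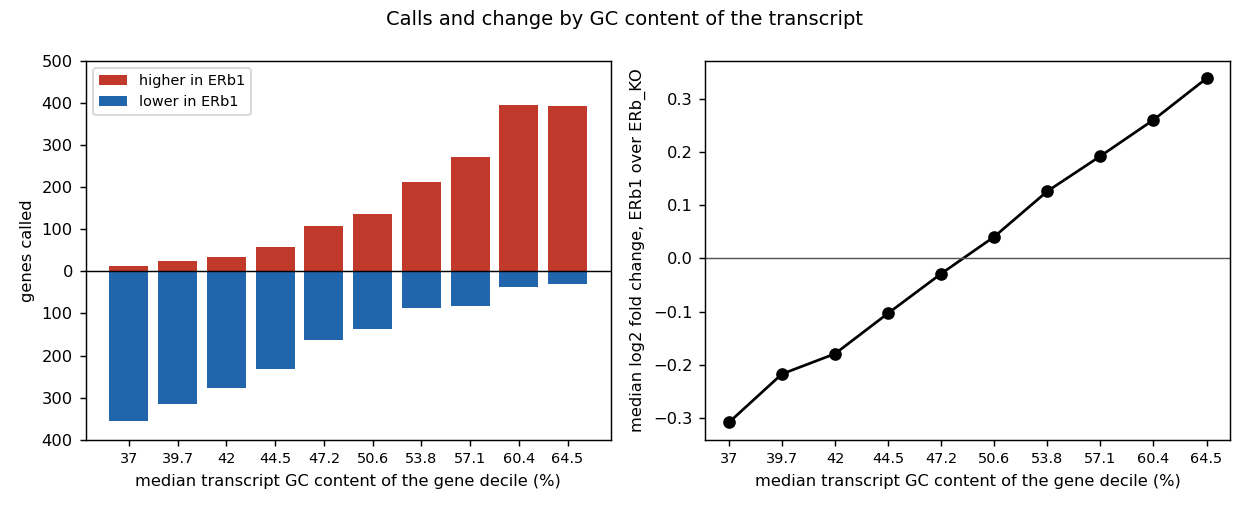
Genes are placed in 10 groups by the GC content of their transcripts, with the number of genes called higher (above 0) and lower (below 0) in ERb1 against ERb_KO as bars and the median log2 change of each group as points. The median runs from -0.31 in the group with least GC to 0.34 in the group with most.

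Several of the steepest rises lay outside these lists. HOPX, a homeodomain protein without DNA binding, had 8.56 and 8.66 CPM in ERb1, against 1.4 and 1.45 CPM in ERb_KO, a log2 change of 2.60 ± 0.21 on transcripts with 44.2% GC. MAOA, the monoamine oxidase, had 29.4 and 29.9 CPM in ERb1, against 11.4 and 10.9 CPM in ERb_KO. BCAS1, a gene amplified in some breast tumours, had 116 and 101 CPM in ERb1, against 42.9 and 35.7 CPM in ERb_KO, and ACACB, a mitochondrial acetyl-CoA carboxylase, had 99.7 and 81.4 CPM in ERb1, against 38.5 and 30 CPM in ERb_KO. The log2 changes were 1.41 ± 0.13 for MAOA, 1.46 ± 0.14 for BCAS1 and 1.40 ± 0.15 for ACACB, and each was called in every fit that left out a library. HSPB1, a small heat shock protein that is induced by estrogen in breast cells, had 773 and 682 CPM in ERb1, against 303 and 377 CPM in ERb_KO. NOTCH3 and LFNG, a receptor and a modifier of the NOTCH pathway, rose by log2 changes of 0.74 and 1.05. Of 15 tested NOTCH genes 2 rose (13.3%) and 1 fell (6.67%), against 12.4% and 12.5% of all genes, so the list was not enriched in rises. NOTCH3 had 299 and 262 CPM in ERb1, against 168 and 167 CPM in ERb_KO, and LFNG had 28.9 and 26.2 CPM in ERb1, against 13.1 and 13.5 CPM in ERb_KO. SNCG, gamma-synuclein, had 54.3 and 43.9 CPM in ERb1, against 19 and 15.4 CPM in ERb_KO, and L1CAM, a neural adhesion molecule, had 20.8 and 19.3 CPM in ERb1, against 8.33 and 5.2 CPM in ERb_KO. EEF1A2, a tissue-specific elongation factor, had 2229 and 2028 CPM in ERb1, against 1184 and 1285 CPM in ERb_KO.

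Genes of the cell's basal machinery gave counts that hung on single libraries. Of 48 tested ribosomal protein genes 19 rose and 0 fell with a median of 0.32, but without ERb1 replicate 1 edgeR called 0 (17 at an unadjusted p under 0.05), without ERb_KO replicate 1 it called 0 (8 unadjusted), and it called 10 without ERb1 replicate 2 and 29 without ERb_KO replicate 2. Ribosomal proteins also share reads with pseudogenes. Of 41 tested respiratory chain genes 13 rose and 0 fell with a median of 0.28, and 2 rose without ERb1 replicate 1, 3 without ERb_KO replicate 1 and 8 without ERb_KO replicate 2. NDUFA2, a subunit of complex I, had 79.4 and 75.1 CPM in ERb1, against 45.1 and 52 CPM in ERb_KO, and was called in each of those fits. Of 30 proteasome genes 4 fell, 5 did without ERb1 replicate 2, and edgeR called 0 without any other single library, with 5 lower at an unadjusted p under 0.05 each time. In the BCL2 family, which sets the threshold of cell death, 6 of 15 rose and 2 fell. The count was 2 and 2 without ERb_KO replicate 1, and 3 and 0 without ERb1 replicate 1. The death-promoting members BAD and BMF were among the rises, with 32.4 and 31 CPM in ERb1, against 16.4 and 19.4 CPM in ERb_KO for BAD and 23.7 and 18.7 CPM in ERb1, against 11.9 and 10.7 CPM in ERb_KO for BMF. Of 25 tested p53 targets, 2 rose and 3 fell with a median of 0.03, and without ERb_KO replicate 2 edgeR called 0, with 4 higher and 4 lower at an unadjusted p under 0.05. After the trend with GC content and length was removed, 5 rose and 6 fell.

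Genes tied to estrogen moved both ways. PGR, a classic estrogen target, had 0 reads in both ERb1 libraries and 0 and 2 reads in ERb_KO. GPER, a membrane receptor for estrogen, had 6.27 and 6.2 CPM in ERb1, against 2.41 and 2.04 CPM in ERb_KO, a log2 change of 1.48 ± 0.18. TFF1, a secreted peptide induced by estrogen in breast cells, had 254 and 259 CPM in ERb1, against 289 and 378 CPM in ERb_KO, and did not pass (edgeR adjusted p = 0.13). NRIP1, a corepressor that estrogen receptors induce and bind, had 54.5 and 58.3 CPM in ERb1, against 87.7 and 86.8 CPM in ERb_KO, and IRS1, an insulin receptor substrate, had 26.9 and 30.2 CPM in ERb1, against 45.4 and 41.4 CPM in ERb_KO. Both were lower in ERb1, with log2 changes of -0.63 ± 0.10 for NRIP1 and -0.60 ± 0.12 for IRS1. Of 27 tested estrogen-responsive genes 6 rose and 7 fell with a median of -0.18, 2 rose and 4 fell without ERb1 replicate 1, and 4 fell without ERb_KO replicate 1. Of 38 tested nuclear receptors and cofactors 11 rose and 4 fell with a median of 0.23. The number that rose was 2 without ERb1 replicate 1 and 4 without either ERb_KO library, and 4 rose and 2 fell after the GC trend was removed. RXRA, the partner with which many nuclear receptors pair, had 176 and 171 CPM in ERb1, against 117 and 119.6 CPM in ERb_KO (0.55 ± 0.09).

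Against the other groups, some of the division genes were called lower in ERb1 and the list medians were nearer 0. Between ERb1 and ERb5, 649 of 13915 genes passed (4.66%), 164 higher (1.18%) and 485 lower, and the count was 125 without ERb1 replicate 1, 175 without ERb1 replicate 2, 298 without ERb5 replicate 2 and 1389 without ERb5 replicate 1. Between ERb1 and control, 565 passed (4.06%), 189 higher and 376 lower (2.7%), and 128 to 235 passed without any single library. Over the kinetochore, spindle checkpoint, motor, condensin and cytokinesis lists, 31 of 86 tested members were lower in ERb1 than in ERb5, with 6 to 34 without 1 library in turn, and 46 of 86 were lower than in control, with 24 to 39. The spindle checkpoint had the smallest shares, with 3 of 15 lower than in ERb5 and 4 of 15 lower than in control. Motors and spindle genes had the largest. Of these 23 genes, 12 were lower in ERb1 than in ERb5 (median -0.74) and 16 lower than in control (median -1.10). Those counts were 3 against ERb5 without ERb1 replicate 1, and 10 against control without control replicate 1. MYBL2 had 22 and 20.5 CPM in ERb1, 38.9 and 41.1 CPM in ERb5, 112 and 99.7 CPM in ERb_KO and 54.3 and 50.6 CPM in control, so ERb1 was lowest and ERb_KO highest with no overlap between any groups. The log2 change of ERb1 was -0.92 ± 0.11 over ERb5 and -1.31 ± 0.11 over control (edgeR adjusted p = 0.00075 and 0.00016). KIF20A had 12.3 and 13.7 CPM in ERb1, 27.1 and 38.6 CPM in ERb5, 69.5 and 61 CPM in ERb_KO and 46.2 and 39.1 CPM in control. IL1B was lower in ERb1 than in any other group, with 0.188 and 0.269 CPM in ERb1, 1.12 and 1.73 CPM in ERb5, 3.95 and 3.56 CPM in ERb_KO and 3.07 and 3.41 CPM in control. VIM had 2.59 and 4.37 CPM in ERb5 and 7.81 and 12.4 CPM in control, so ERb1 and ERb5 overlapped and both lay below control. SLC7A11 had 127 and 131 CPM in ERb5 and 98.3 and 91.6 CPM in control, so ERb_KO stood above the other groups, which were close together.

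**Figure D5:**
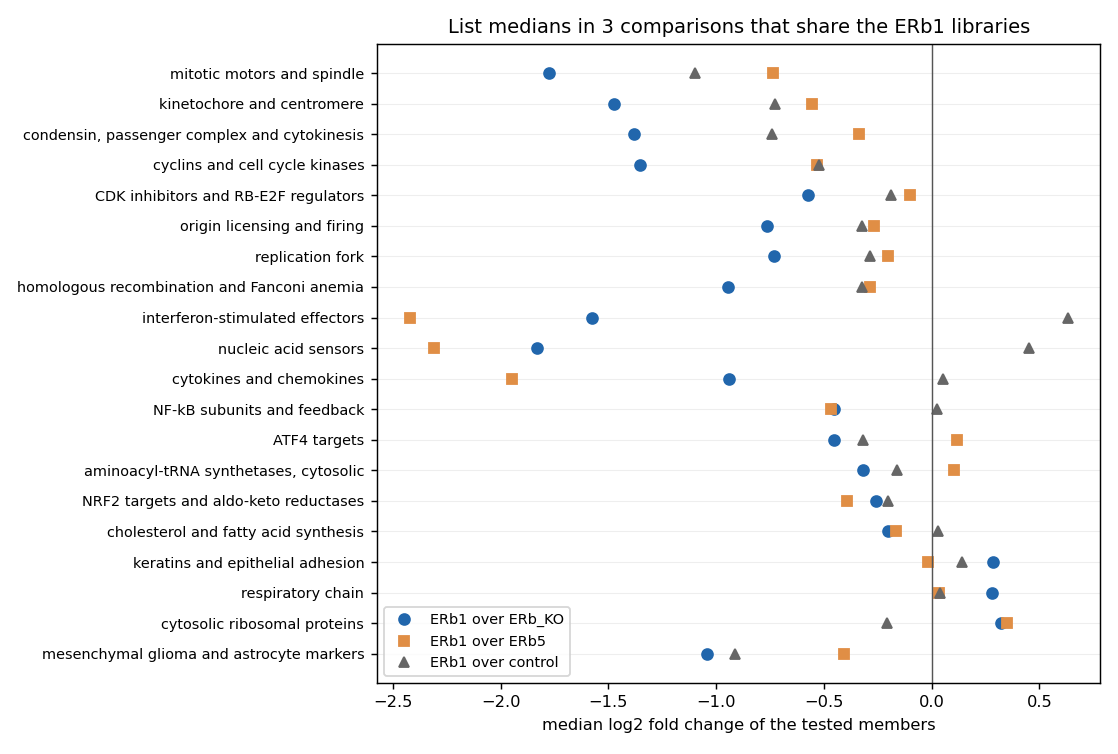
Each row is a gene list and each mark its median log2 change for ERb1 over ERb_KO, over ERb5 or over control, which share the ERb1 libraries. The interferon-stimulated effectors have medians of -1.58, -2.42 and 0.63, and the motors and spindle list medians of -1.78, -0.74 and -1.10.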

How the data were processed

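Total RNA of 8 libraries was sequenced as single-end reads. The authors deposited unnormalised read counts for each gene, made with bcl2fastq, TopHat2 2.0.8b on hg19 and HTSeq, per the submitters' processing notes. Neither the strand setting of HTSeq nor its annotation is given in the sources used here, so reads cannot be assigned between a gene and an antisense partner that overlaps it. Reads with more than 1 place are not in the gene counts, so ribosomal protein, histone, HLA and AKR1C levels are uncertain. These reads and those in no gene, ambiguous, of too low alignment quality or not aligned made 5 entries that name no gene. These entries were left out of library sizes and tests. Genes held 52.5 to 57.1% of all counted reads.

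Of 23228 genes, 13915 passed edgeR's filterByExpr (minimum count 10, minimum total 15). They were tested with edgeR 4.0.16 in R 4.3.3 (quasi-likelihood F test, robust, TMM scaling), with all 8 libraries in 1 fit without a replicate block. Benjamini-Hochberg adjustment ran over all genes tested, and genes with an adjusted p under 0.05 are called. Each gene said to have risen or fallen was called. The SE of a log2 change is its size over the root of F. The common biological coefficient of variation was 0.102. Alternatives were upper quartile and relative log expression scaling, other filters, DESeq2 1.42.0, a 1.5-fold minimum change, a fit on only the groups compared, a replicate block, removal of the trend with GC content and length, and leaving out each library. Symbols were matched to a GENCODE annotation on GRCh37 for 13151 of the genes (94.5%), which gave positions, GC content and length. The fit was tested on simulated data with 200 changed genes.

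The named genes are the 20 largest rises and 15 largest falls among called genes with 5 CPM or more and no overlap, the 10 largest rises and falls in CPM, up to 6 members of each list by size of change, and 9 receptor and marker genes. Other members were named for their role after their values were seen, and some items are not reported here. The members and lists were chosen with earlier results of these data known.

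Replicate pairs differed beyond counting noise in each group, so no library was a copy of another. The difference of replicate 1 minus replicate 2 correlated across genes at 0.139 between ERb1 and ERb_KO. This value does not settle whether same-numbered libraries belong together, and ERb5 and control were not part of it.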

Additional observations from a re-analysis of the deposited data

How the results depend on the processing

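For ERb1 against ERb_KO, the count of 3466 called genes stayed within 1.5 times under scaling, filters, DESeq2, a fit on only the groups compared and removal of the GC and length trend (3242 to 4298). Tested against a 1.5-fold minimum, 455 genes passed, 96 higher and 359 lower. Without 1 library in turn, the counts ran from 1198 to 3773 genes, 512 to 1658 higher and 686 to 2115 lower, with the lowest without ERb1 replicate 1. Genes past 2-fold numbered 711, against 431 with the 1.5-fold minimum and 429 to 831 without 1 library. Of these, 200 were higher, against 85 with that minimum, 114 with the GC and length trend removed, with or without the block, and 90 to 266 without 1 library. The other 511 were lower, and 339 to 565 without 1 library. For ERb1 against ERb5, the 649 called genes became 1375 without a filter, 189 with the 1.5-fold minimum, 421 with only the groups compared, 1151 with the trend removed, 1247 with the trend removed and the block, and 125 to 1389 without 1 library. For ERb1 against control, the 565 called genes became 1384, 86, 1107, 1347 and 1461 under the same settings, 853 with DESeq2, and 128 to 235 without 1 library. The replicate numbers were not shown to pair the libraries: with the replicate block 3519 genes were called for ERb1 against ERb_KO, 652 against ERb5 and 581 against control. The causes were not tested.

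Of 120 called genes among the 144 named, 116 kept their call and direction without each library of ERb1 and ERb_KO in turn. The exceptions were CCNE1, CDKN1B, POLD4 and RPA1. Many of the named genes were picked from these same libraries for the size of their change. Their share therefore does not describe the called genes as a whole. The direction reversed only for 8 genes that were not called. Without 1 library in turn, their log2 changes ran from -0.23 to 0.037 for ATF4, -0.37 to 0.0073 for CDK2, -0.37 to 0.0086 for NCAPD3, -0.32 to 0.15 for PMF1, -0.0093 to 0.15 for CCND3, -0.20 to 0.38 for CDKN1A and -0.095 to 0.10 for IFITM2. With the GC and length trend removed, without and with the block, they were -0.19 and -0.20 for CCND3, -0.10 and -0.10 for CDKN1A, 0.056 and 0.060 for CKAP2, and -0.23 and -0.24 for IFITM2. IFITM2 had 0.0020 in the fit reported, -0.013 with only the groups compared and -0.0020 with the replicate block. With 2 libraries a group, a gene's call rests on the spread pooled over genes, and genes of few reads are the least precise.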

Other observations

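Matrix, neuronal and luminal genes that the report does not name were called in both directions between the libraries labelled ERb1 and ERb_KO. Of 36 tested matrix, integrin and protease genes 6 rose and 6 fell (16.7% each, against 12.4% and 12.5% of all genes), and 2 fell without ERb1 replicate 1. LAMB2 and LAMA5, chains of basement membrane laminins, were among the rises, with 868 and 720.5 CPM in ERb1, against 468 and 397 CPM in ERb_KO for LAMB2. LAMA5 had 423 and 358 CPM in ERb1, against 236 and 212 CPM in ERb_KO, and the protease inhibitor TIMP1 had 430.1 and 368 CPM in ERb1, against 226 and 219 CPM in ERb_KO. The log2 changes were 0.88 ± 0.13 for LAMB2, 0.80 ± 0.11 for LAMA5 and 0.84 ± 0.14 for TIMP1, and all stayed called by edgeR without any single library. Of 27 tested neuronal cytoskeleton and guidance genes 7 rose and 5 fell. TUBB3, a neuronal tubulin, had 10.6 and 7.83 CPM in ERb1, against 3.28 and 3.2 CPM in ERb_KO, and the axon guidance ligand SEMA3F had 382 and 329 CPM in ERb1, against 199 and 179 CPM in ERb_KO. STMN1, a tubulin-binding protein that dividing cells also use, fell, with 51.6 and 64.2 CPM in ERb1, against 182 and 176 CPM in ERb_KO. Some luminal genes were lower, against the direction of the keratins. AGR2, a protein disulfide isomerase of secretory epithelia, had 278 and 264 CPM in ERb1, against 529.7 and 551 CPM in ERb_KO, and the epithelial factor EHF had 20 and 26.1 CPM in ERb1, against 57 and 53.4 CPM in ERb_KO. The log2 changes were -0.996 ± 0.11 for AGR2 and -1.26 ± 0.13 for EHF.

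Several further genes were chosen after their values were seen. PTX3, a pentraxin of innate immunity, had 0 and 0 CPM in ERb1, against 0.597 and 0.527 CPM in ERb_KO. PTGS2, the inducible cyclooxygenase, had 0 and 0 CPM in ERb1, against 0.413 and 0.428 CPM in ERb_KO. FGF2, a fibroblast growth factor, had 0 and 0.0413 CPM in ERb1, against 0.872 and 0.527 CPM in ERb_KO. No fold is given where a group lies at 0. All 3 were called lower by edgeR, with adjusted p-values of 0.00041 for PTX3, 0.0023 for PTGS2 and 0.0009 for FGF2, on few reads. By chromosome, 193 of 963 tested genes on chromosome 19 rose and 50 fell, with a median log2 change of 0.19 and a median transcript GC content of 59.5%. On chromosome 13, 12 of 232 rose and 40 fell, with a median of -0.16 and a GC content of 42.9%. The part of base composition in this was not tested apart from the trend given in the report.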
